A study of Elaeis guineensis with 58 samples.

Results

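The 150 genes described here are those whose level varied least between palms in the spear leaf of the oil palm, Elaeis guineensis. They were chosen by the measured values, out of 27986 gene rows of which 27805 carry an LOC identifier. A gene could enter if its mean level was between 20 and 300 CPM, read counts scaled to library size, both in the 32 libraries of set L1, named for the agency that supplied the palms, and in the 20 libraries of set L2 extracted with the InnuPREP kit, and 6750 genes did. For each of these, the SD of log2(CPM + 1) was taken within each set, the larger of the 2 SDs was kept, and the 150 genes with the lowest values became the members. All 58 libraries were brought to a common scale with TMM factors, which assume that most genes do not differ. The same rule on CPM by total gene counts would have kept 90 of the 150, and without the L2 high palms 82.

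Relative measurements of transcripts, such as quantitative PCR, need reference genes whose level does not follow the condition or the handling of the sample. Such genes are often taken from families with basic cell functions, and whether they are steady has to be measured in each tissue. Steadiness between plants and steadiness between handling procedures are separate properties, because a transcript can be held level in the tissue and still be recovered or counted differently in another preparation. The spear leaf is the unopened leaf at the crown, and palms in such work are propagated by somatic embryogenesis, in which embryo-like structures form from cultured tissue.

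The libraries came from 52 palms supplied by 2 agencies, labelled L1 and L2, and hold single-end reads from 3′ ends of transcripts. Palms were labelled by the number of embryoid lines that their cultures gave: none for zero, 1 to 89 for low, and 90 or more for high. The 6 L2 CTAB libraries were second extractions, with CTAB, from palms that also had an InnuPREP library. They held 2 high palms of Jen Avros and Jen Avros Yangambi, 2 low palms of Yangambi_B and 2 zero palms of Yangambi_A. The 20 L2 InnuPREP libraries held 8 high palms, of which 6 were Jen Avros, 1 was Yangambi_C and 1 was Jen Avros Yangambi. They also held 6 low palms, of which 4 were Yangambi_B, 1 was Yangambi_C and 1 was Jen Avros, and 6 zero palms, all Yangambi_A. The 32 L1 libraries, all extracted with CTAB, held 15 low palms, of which 7 were Dumpy Avros and 8 were Dumpy Yangambi Avros, and 17 zero palms, of which 5 were Dumpy Avros and 12 were Dumpy Yangambi Avros. Reads were 50 bases long in L2 and 100 in L1. In L2 the embryoid class and the genotype largely coincide, and between agencies the genotype and the read length change too, so these cannot be told apart.

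Gene counts per library totalled 4215872 to 7580573 in L2 CTAB, 8773354 to 15004694 in L2 InnuPREP and 3943437 to 9685451 in L1. Plastid transcripts of photosynthesis were present in every library, with psbA between 236 and 11091 CPM and rbcL between 280 and 5797 CPM. One library stood apart, that of L1 low palm 11. Its median correlation with the rest of L1, over log2(CPM + 1) of the 6750 genes, was 0.476, the lowest of its set. Without it, 126 of the 150 members would have been chosen again.

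The larger of the 2 SDs ran from 0.139 to 0.250 over the members, with a median of 0.232, against a median of 0.479 over all 6750 genes in the level window. L1 gave the larger SD in 87 members and L2 InnuPREP in 63. These values chose the members and are given as a description. At the limit, LOC105042440, LOC105038292 and LOC105048763 were the last to enter and LOC105040272, LOC105056328 and LOC105056325 the next to miss, with 0.2500 to 0.2501 inside and 0.2503 to 0.2505 outside, so that the limit marks no gap in the distribution. Lists of 150 genes chosen from L1 alone and from L2 InnuPREP alone shared 19 genes, which is 12.7% of either list. A list of 150 genes is itself 2.22% of the window. The L1 list held 72 of the members and the L2 InnuPREP list 37.

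Members had middling levels. Their median of the mean level was 48.4 CPM in L2 CTAB, 44.2 CPM in L2 InnuPREP and 50.2 CPM in L1, and single members ranged from 22.2 to 365, from 21.0 to 298 and from 21.3 to 286 CPM in the same order of sets. Their levels were those of the window at large, whose medians were 48.4 CPM in L2 InnuPREP and 47.9 CPM in L1. Counting error made up a median of 9.64% of a member's variance in L2 InnuPREP and 14.5% in L1, so the remaining spread between palms was mostly above the error that read number sets. That counting error covers sampling of reads only.

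The gene annotation of the EG11 assembly held 146 of the members, of which 145 were protein-coding genes and 1, LOC105055035, a long non-coding RNA. The other 4 are named only: LOC105057515, LOC105038158, LOC105042964 and LOC109504741. The annotation used gives no product names for LOC identifiers, so no function is assigned to any member, and the lists of actin, tubulin, ubiquitin, elongation factor, cyclophilin and other families could not be applied. Of the 150 members, LOC105054605 and LOC105054604 were the only pair of neighbours in the annotation.

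The member with the lowest spread was LOC105033289, with a larger SD of 0.139. Its lowest, median and highest levels were 82.7, 108 and 120 CPM in L2 CTAB, 80.9, 92.2 and 117 CPM in L2 InnuPREP and 77.0, 90.8 and 105 CPM in L1. All 58 libraries thus fell within a range of less than a doubling. LOC105054569, with a larger SD of 0.166, ran from 62.7 to 73.4 CPM in L2 CTAB with a median of 68.6, from 54.5 to 73.5 CPM in L2 InnuPREP with a median of 61.7, and from 44.6 to 74.9 CPM in L1 with a median of 51.5. The ranges of the 3 sets overlapped for both genes, while for LOC105054569 the L1 palms sat lower than either L2 set.

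Next in order came LOC105034396, with means of 41.3 ± 8.32 CPM in L2 CTAB, 33.4 ± 4.28 in L2 InnuPREP and 31.1 ± 3.99 in L1 (SD, n = 6, 20 and 32). LOC105049876 had 31.5 ± 3.52, 26.2 ± 3.33 and 38.8 ± 4.29 CPM in the same sets and numbers of libraries (SD). LOC105049253 had 68.3 ± 7.79, 68.7 ± 5.49 and 64.4 ± 8.28 CPM (SD). Among these 3, LOC105049253 held nearly one level across the sets, whereas LOC105049876 was lowest in L2 InnuPREP and highest in L1. The other members of the leading 10 were LOC105061563, LOC105042727, LOC105053108, LOC105046808 and LOC105035233, with larger SDs between 0.188 and 0.199. LOC105053108 was the most abundant of the 10, at 125 ± 15.7 CPM in L2 CTAB, 149 ± 20.0 CPM in L2 InnuPREP and 158 ± 21.2 CPM in L1 (SD).

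**Figure D1:**
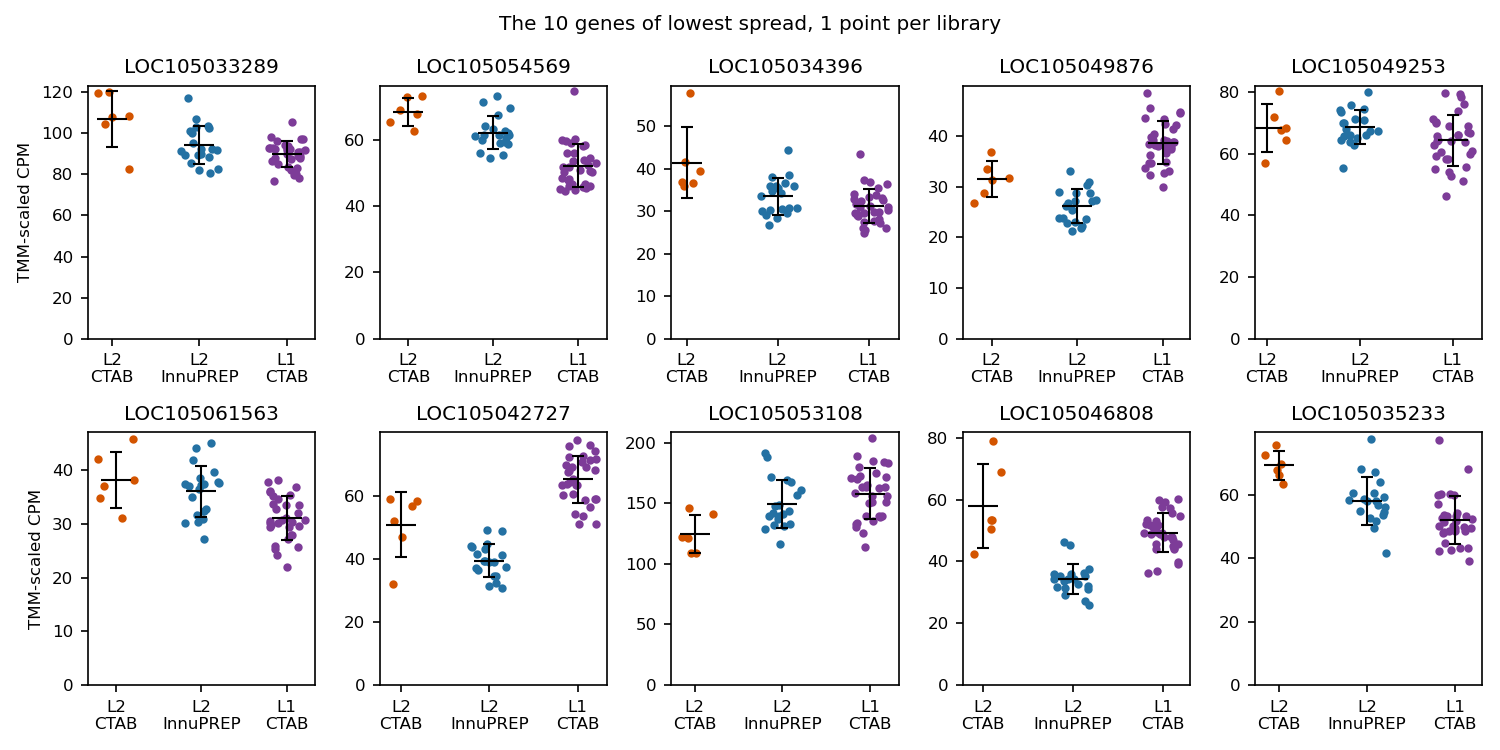
Level (TMM-scaled CPM, linear axes from 0, each panel with its own scale) of the 10 members with the lowest spread in every library, with L2 CTAB (6 libraries), L2 InnuPREP (20) and L1 (32) side by side for each gene; points are libraries and bars the mean ± SD. Points of a gene lie close together within a set, while the set means of some genes, such as LOC105046808 and LOC105042727, are displaced from each other.

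The 6 L2 CTAB libraries played no part in the choice, although they came from palms whose InnuPREP libraries did, so they test a second preparation and not new palms. Over these 6 libraries the members' SD of log2(CPM + 1) ranged from 0.0876 to 0.411 with a median of 0.195, beside a median of 0.367 over the window. Of the 150 members, 123 were in the lowest quartile of the window by this SD, 147 were below its median and 0 were in its highest quartile. An SD no larger than the list's limit was seen in 122 members, or 81.3%, and in 24% of the window's genes. The 3 members above the window's median, named here after their values were seen, were LOC105061474, LOC105039633 and LOC105038843, with SDs of 0.41, 0.38 and 0.37. Among the leading 10, the SD in L2 CTAB was lowest in LOC105054569, at 0.0876, and highest in LOC105042727, at 0.331.

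**Figure D2:**
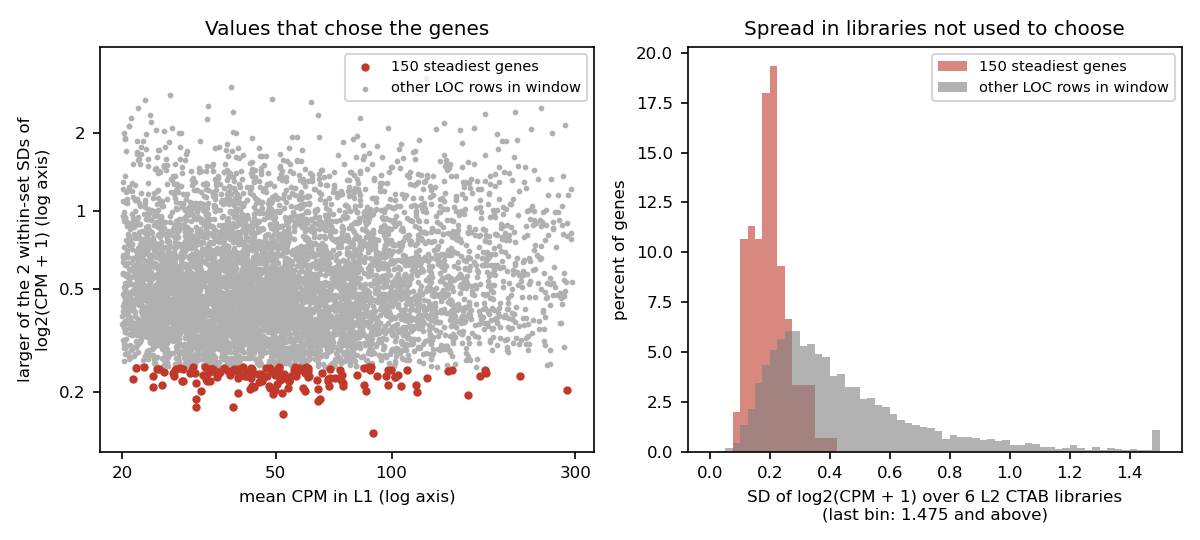
Left: mean level in L1 (CPM, log axis) against the larger of the SDs of log2(CPM + 1) in L1 and L2 InnuPREP (log axis) for the 6750 genes in the level window, members in red; the values on the vertical axis chose the members. Right: SD of log2(CPM + 1) over the 6 L2 CTAB libraries, as the percent of genes per bin, for the 150 members and the other 6600 genes, with medians of 0.195 and 0.373.

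Spread was also measured as the mean SD of a gene's log2 ratio to each of the members, the M value used to rank reference genes. It was taken on log2(CPM + 1), where a library's scaling factor nearly cancels. A low M means that a gene kept its ratio to the members. In L2 CTAB the median M was 0.267 for members and 0.414 for the other genes of the window. It was 0.283 against 0.452 in L2 InnuPREP and 0.295 against 0.483 in L1, which the choice used. Since M takes the members as its yardstick, it is a description of how they moved together.

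Extraction was compared within the 6 palms that had both a CTAB and an InnuPREP library, with palm as a block, in an edgeR quasi-likelihood fit of all 20803 genes tested. Of the 150 members, 87 changed at an adjusted p below 0.05, which is 58%, and 53.9% of all tested genes and 66.1% of the genes in the level window did so. The share of members called was thus near that of genes in general. With CTAB, 48 members rose and 39 fell, beside 24.6% and 29.3% of all tested genes. Scaled by total gene counts in place of TMM, 94 rose and 12 fell, and the median of all tested genes was 0.25 on the log2 scale, against -0.04 with TMM. Without the palm block, 33 members were called, so this count rests on the pairing.

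The members' differences were smaller in size than those of genes in general. The median absolute log2 difference was 0.25 over members, 0.37 over the window and 0.42 over all tested genes. A change of more than 0.5 on the log2 scale was called in 30 members, or 20%, of which 16 rose and 14 fell, and in 37.3% of all tested genes and 36.4% of the window. The whole 95% interval lay within 0.5 of no change in 89 members, or 59.3%, against 23.4% of all tested genes and 38.7% of the window. The width of an interval follows the spread between palms, which the choice used in the InnuPREP libraries and in L1, so the shares of intervals are not independent of it. An estimated difference also carries error from that spread, so the median sizes and the calls above 0.5 are not independent of the choice either. In these palms the CTAB libraries differed from the InnuPREP libraries in other ways too: plastid genes took 6.24 ± 1.19% of counts, against 3.13 ± 0.800%, and multi-mapped reads were 24.9 ± 5.77%, against 13.5 ± 3.48% (SD, n = 6 each). Mean totals were 5934010 and 12657736 counts. The part of these in the members' differences was not tested, and in bulk leaf RNA fewer cells of a type and less RNA per cell cannot be told apart.

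LOC105034328 had the largest rise of any member with CTAB. In the palms high 3, high 8, low 5, low 6, zero 2 and zero 6 of L2 it had 85.9, 109, 129, 148, 78.9 and 101 CPM with CTAB, against 41.6, 34.6, 49.1, 40.4, 38.7 and 36.0 CPM with InnuPREP. Every CTAB value lay above every InnuPREP value, and the log2 difference was 1.42 ± 0.11 (SE, adjusted p = 3.65e-09). LOC105056472 rose by 0.81 ± 0.09 (SE, adjusted p = 4.11e-07), with 48.8, 47.4, 52.2, 64.5, 47.6 and 45.3 CPM with CTAB, against 24.99, 25.8, 30.6, 38.8, 26.1 and 29.5 CPM with InnuPREP in the same order of palms. Its groups did not overlap either. LOC105051046 rose by 0.71 ± 0.10 (SE, adjusted p = 4.79e-06), and its CTAB libraries held 37.6 to 58.7 CPM, against 26.8 to 31.3 CPM in the InnuPREP libraries of these palms.

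In the other direction, LOC105047060 had 74.7, 54.7, 70.6, 69.8, 72.8 and 50.03 CPM with CTAB, against 142, 114, 178, 140, 145 and 111 CPM with InnuPREP, again for palms high 3, high 8, low 5, low 6, zero 2 and zero 6. Its lowest InnuPREP value was above its highest CTAB value, and the log2 difference was -1.08 ± 0.09 (SE, adjusted p = 5.91e-09). The non-coding RNA LOC105055035 fell in the same way, with 92.3, 102, 74.5, 86.4, 89.5 and 109 CPM with CTAB, against 200, 159, 135, 216, 204 and 167 CPM with InnuPREP, a log2 difference of -0.95 ± 0.10 (SE, adjusted p = 1.79e-07). LOC105054091 fell by 0.74 on the log2 scale (SE 0.09, adjusted p = 8.6e-07), with 33.8 to 47.0 CPM with CTAB, against 54.3 to 80.8 CPM with InnuPREP. LOC105034328 and LOC105047060 were the 2 members whose called change was above 1 on the log2 scale.

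**Figure D3:**
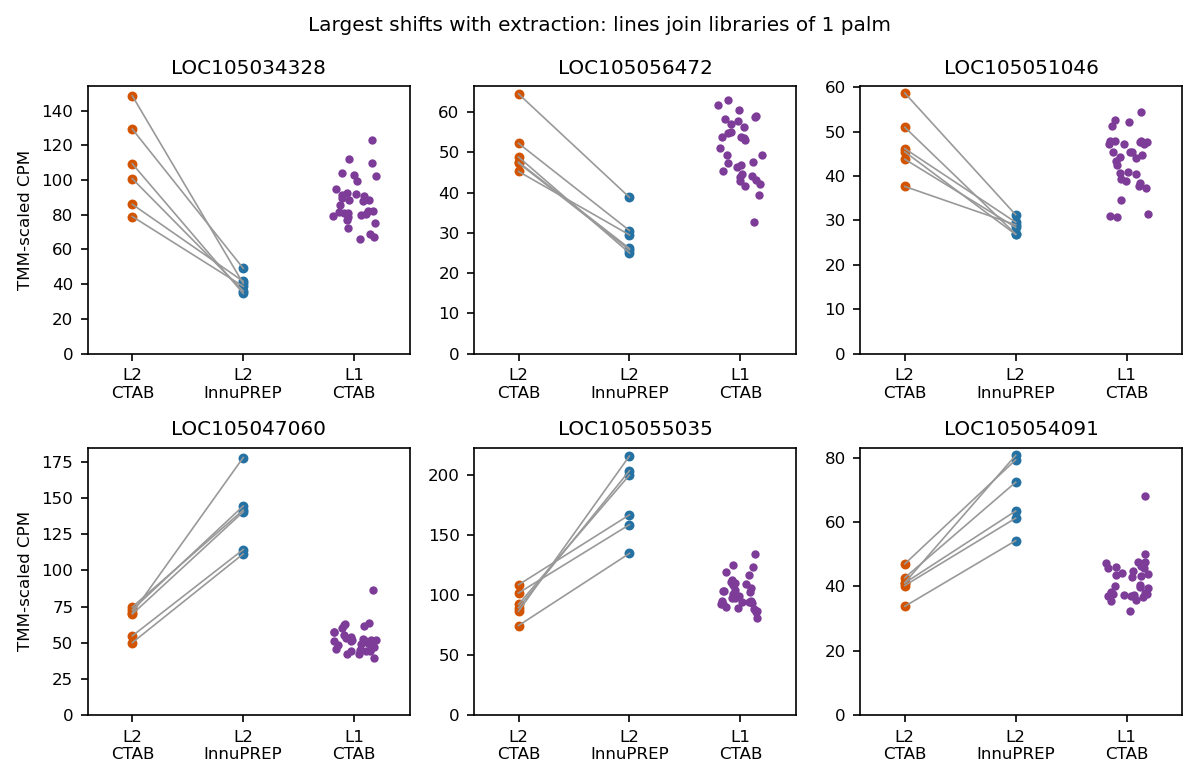
Level (TMM-scaled CPM, linear axis from 0) of the 3 members that rose most (top) and the 3 that fell most (bottom) with CTAB: L2 CTAB and L2 InnuPREP libraries of the 6 palms with both, each palm joined by a line, and the 32 L1 libraries. In all 6 genes every palm's line runs the same way, and the L1 points lie nearer the L2 CTAB points than the InnuPREP points. The genes were picked for their gap between the L2 sets, so these patterns are in part set by the pick.

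Among the leading 10, 6 were called as changed with extraction. LOC105046808 rose by 0.66 ± 0.10 (SE, adjusted p = 1.75e-05), with 42.4 to 79.1 CPM with CTAB, against 31.7 to 46.2 CPM with InnuPREP, and was higher in all 6 palms. LOC105049876 rose by 0.33 ± 0.09 (adjusted p = 0.00598) and LOC105035233 by 0.28 ± 0.08 (adjusted p = 0.00956), each in all 6 palms. LOC105034396 (0.27, adjusted p = 0.0371), LOC105042727 (0.29, adjusted p = 0.0202) and LOC105053108 (-0.23, adjusted p = 0.0469) were also called. Leaving out single palms ended these calls: zero 2, zero 6, high 8 or low 5 for LOC105034396, zero 2, zero 6 or high 8 for LOC105042727, and high 3, zero 6, high 8 or low 5 for LOC105053108. Of these 6 calls, that of LOC105046808 held without the palm block and the other 5 did not, and LOC105053108 was at 0.055 when scaled by total gene counts. No call was made for LOC105033289, at 0.15 with a 95% interval of -0.02 to 0.32, LOC105054569, at 0.13 from -0.05 to 0.30, LOC105049253, at -0.09 from -0.27 to 0.09, or LOC105061563, at 0.13 from -0.07 to 0.33. The neighbours LOC105054605 and LOC105054604 differed from each other, with log2 differences of 0.42 (adjusted p = 0.000433) and -0.07 (adjusted p = 0.565), a contrast not tested in itself.

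Agency was compared among CTAB libraries, L2 CTAB over L1, so that the extraction label was the same. Of the 150 members, 53 differed, which is 35.3%, against 36.2% of the 20019 genes tested and 34.4% of the window, and 26 were higher and 27 lower in L2, beside 17.6% and 18.6% of all tested genes. This share too was near the background. Scaled by total gene counts, 37 were higher and 5 lower, and the median of all tested genes was 0.11 on the log2 scale, against -0.04 with TMM. The median absolute log2 difference was 0.20 over members, 0.36 over the window and 0.47 over all tested genes. Differences above 0.5 on the log2 scale were called in 7 members, or 4.67%, against 32.9% of all tested genes and 27.6% of the window. The 95% interval lay within 0.5 of no difference in 101 members, or 67.3%, against 10.6% of all tested genes and 19.7% of the window. The spread within L1 entered both the choice of the members and the error of these differences. The median size, the calls above 0.5 and the intervals are therefore not independent of the choice. L2 CTAB held 50-base reads and 6.24 ± 1.19% of counts in plastid genes, L1 100-base reads and 11.4 ± 3.05% (SD, n = 6 and 32), and the part of these was not tested.

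**Figure D4:**
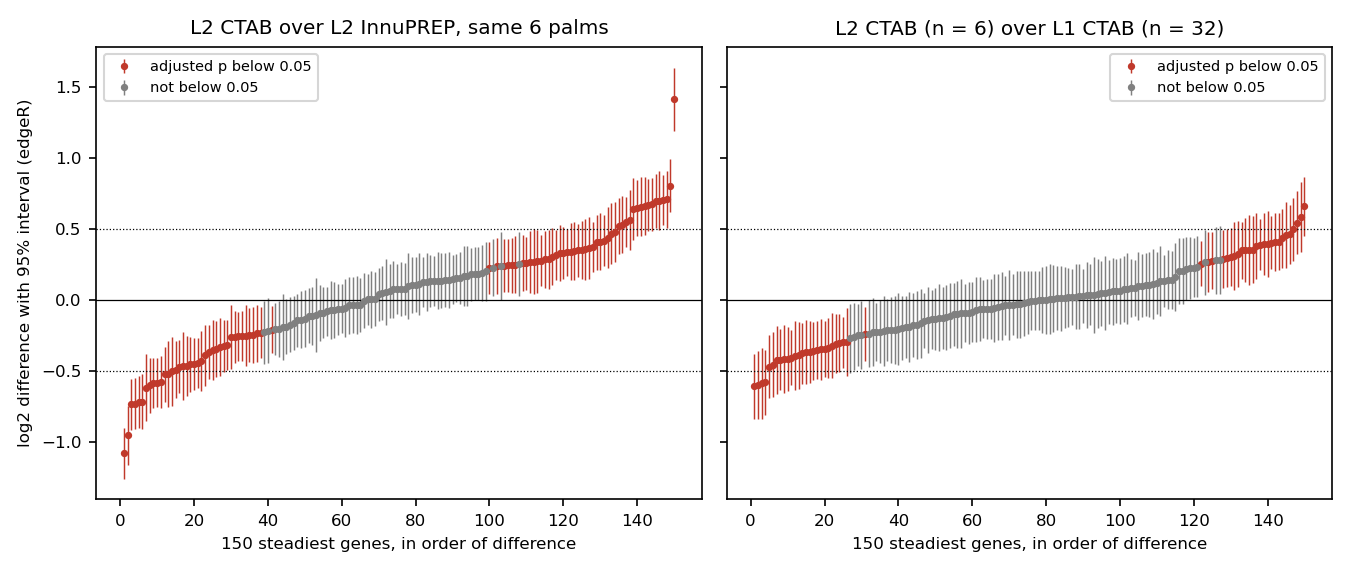
Log2 difference of each of the 150 members with its 95% interval (vertical lines), in order of size, for L2 CTAB over L2 InnuPREP of the same 6 palms (left) and L2 CTAB over L1 CTAB (right); red marks an adjusted p below 0.05 and dotted lines mark 0.5 on either side of 0. Differences run from -1.08 to 1.42 for extraction and from -0.61 to 0.66 for agency.

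Among members higher in L2 CTAB, LOC105040430 had the largest difference, with lowest, median and highest levels of 71.6, 81.0 and 106 CPM in L2 CTAB, against 41.4, 54.9 and 77.7 CPM in L1. The 2 groups overlapped only at their edges, and the log2 difference was 0.66 ± 0.10 (SE, adjusted p = 2.46e-06). LOC105046751 was higher by 0.59 ± 0.12 (SE, adjusted p = 0.000179), with 29.9, 37.3 and 45.4 CPM, against 18.9, 22.9 and 38.1 CPM in L1. LOC105035050 was higher by 0.55 ± 0.11 (SE, adjusted p = 0.00011), with 64.7, 77.2 and 99.5 CPM, against 38.2, 53.8 and 80.3 CPM. For LOC105040430, LOC105046751 and LOC105035050 the InnuPREP libraries, with means of 96.4, 51.0 and 81.9 CPM, were farther still from L1. In LOC105035050 the L2 CTAB mean was close to that of InnuPREP, at 79.1 CPM.

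Members lower in L2 CTAB were led by LOC105058330, with lowest, median and highest levels of 30.3, 41.7 and 50.4 CPM, against 41.1, 63.6 and 87.2 CPM in L1, a log2 difference of -0.61 ± 0.11 (SE, adjusted p = 0.000136). LOC105058653 had 23.5, 26.2 and 34.6 CPM, against 28.7, 40.9 and 53.6 CPM in L1 (log2 difference -0.60, adjusted p = 0.000285). LOC105032592 had 16.5, 21.6 and 31.8 CPM, against 23.3, 34.4 and 41.5 CPM in L1 (log2 difference -0.59, adjusted p = 0.000548). In LOC105058330 the InnuPREP libraries of L2, with a mean of 69.1 CPM, were close to the L1 mean of 63.98 CPM, so that the CTAB libraries of L2 were the low ones.

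Several of the leading 10 also differed between agencies. LOC105034396 and LOC105035233 were higher in L2 CTAB by 0.41 on the log2 scale (adjusted p = 0.00118 and 0.00102), LOC105054569 by 0.39 (adjusted p = 0.00056), LOC105061563 by 0.30 (adjusted p = 0.016) and LOC105033289 by 0.26 (adjusted p = 0.00845). LOC105042727, LOC105053108 and LOC105049876 were lower, by -0.36, -0.34 and -0.30 (adjusted p = 0.00615, 0.0126 and 0.00974). The call for LOC105061563 was lost without the CTAB library of L2 zero palm 6 or of L2 high palm 8, and those for LOC105042727, LOC105053108 and LOC105049876 when scaled by total gene counts. LOC105049253 and LOC105046808 were not called. For LOC105033289, the log2 difference of L2 InnuPREP over L1 was 0.07 (adjusted p = 0.164), not called, and its SD in L2 CTAB was 0.195, at the median of the members.

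The 2 sets in which the members were chosen differ in agency, extraction and read length at once. L2 InnuPREP over L1 gave 107 called members, or 71.3%, of which 45 were higher and 62 lower, beside 69.2% of 19644 genes tested (34.1% higher, 35.1% lower) and 65.9% of the window. The interval lay within 0.5 of no difference in 100 members, or 66.7%, against 17.3% of all tested genes and 28.3% of the window. More than 0.5 on the log2 scale was called in 34 members, or 22.7%, against 55% of all tested genes and 42.9% of the window. The spread within these same libraries chose the members, and the level window limits how far the sets can differ. These shares are therefore a description that is not independent of the choice. This comparison shares the L1 libraries with the one above and the InnuPREP libraries with the extraction comparison, so values are given side by side. LOC105034328 differed by -1.15 between L2 InnuPREP and L1 and by 0.31 between L2 CTAB and L1. The pairs of values were 1.46 and 0.32 for LOC105047060, 0.89 and -0.15 for LOC105055035, 0.80 and -0.04 for LOC105054091, -0.84 and 0.01 for LOC105056472, and -0.56 and 0.12 for LOC105051046. In each of these genes, the means of L2 CTAB and L1 were closer to each other than either was to L2 InnuPREP. The genes were picked for their large gap between L2 CTAB and L2 InnuPREP, so this order is in part set by the pick. The agency calls of LOC105034328 (adjusted p = 0.0314) and LOC105047060 (adjusted p = 0.0207) were lost on leaving out single CTAB libraries, those of high palm 8, low palm 5 or low palm 6 for LOC105034328 and of high palm 3, zero palm 2, low palm 5 or low palm 6 for LOC105047060.

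In 64 members, or 42.7%, the 95% interval lay within 0.5 of no difference both for extraction and for agency among CTAB libraries, against 4.22% of the 19632 genes tested in both and 8.83% of the window. Of these 64, 19 were called in at least 1 of the 2 comparisons. The other 45 members, or 30% of the list, were called in neither, against 3.54% of genes tested in both and 6.98% of the window, and 44 of the 45 are annotated as protein-coding. The 2 comparisons share the L2 CTAB libraries, and the intervals depend on the spread that chose the members. Over the 5 comparisons of this report, including those of embryoid classes below, 24 members, or 16% of the list, were called in none. Some of the 45 were thus called in another comparison. The 5 members with the smallest farthest interval bound were chosen by these intervals, so their values are a description. LOC105038417 had lowest, median and highest levels of 73.5, 87.1 and 95.3 CPM in L2 CTAB, 62.7, 85.6 and 117 CPM in L2 InnuPREP and 66.2, 83.2 and 118 CPM in L1. Its log2 difference was -0.01 for extraction, with a 95% interval of -0.20 to 0.19, and 0.02 for agency, from -0.17 to 0.22.

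LOC105049253, also among the leading 10, had extraction and agency differences of -0.09 and 0.08, with 95% intervals of -0.27 to 0.09 and -0.11 to 0.28. Within L1, its log2 difference of low over zero palms was -0.17, with a 95% interval of -0.32 to -0.02 (adjusted p = 0.668, not called). LOC105060333 had means of 64.4 ± 7.62 CPM in L2 CTAB, 63.4 ± 10.1 CPM in L2 InnuPREP and 60.9 ± 8.62 CPM in L1 (SD). LOC105055663 had 41.1 ± 5.92, 43.7 ± 6.17 and 43.1 ± 7.10 CPM, and LOC105054071 had 38.4 ± 4.18, 34.9 ± 5.67 and 40.9 ± 5.58 CPM (SD). The 3 means of LOC105060333 differed by less than the SD within any set. Within L2 InnuPREP, however, its medians were 53.8, 66.5 and 69.6 CPM in zero, low and high palms. The log2 difference of high over zero and low palms was 0.24, with a 95% interval of 0.01 to 0.46 (adjusted p = 0.081, not called). LOC105054071 differed between L2 InnuPREP and L1 by -0.23 (adjusted p = 0.00271). Scaled by total gene counts, the extraction differences of LOC105038417, LOC105055663 and LOC105049253 became 0.28, 0.25 and 0.20. On that scale they were called (adjusted p = 0.0122, 0.0326 and 0.0481), so their lack of a call rests on the TMM scaling. These are candidates by level only, measured as 3′ end counts.

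Taken as one group, the members' mean of log2(CPM + 1) was 5.63 to 5.79 in L2 CTAB, 5.58 to 5.77 in L2 InnuPREP and 5.56 to 5.81 in L1, so that the sets overlapped throughout. The mean level rests on the TMM scale, and low spread on that scale in L2 InnuPREP and L1 chose the members. Its steadiness is therefore not independent of the choice. As a share of all gene counts, with no scaling, the members made up 1.02 ± 0.0753% with CTAB, against 0.850 ± 0.0727% with InnuPREP in the 6 palms with both (SD, n = 6 each). The difference in the unscaled share was larger than the SD within either group, with ranges of 0.888 to 1.08% and 0.735 to 0.914% that overlapped at their edges.

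**Figure D5:**
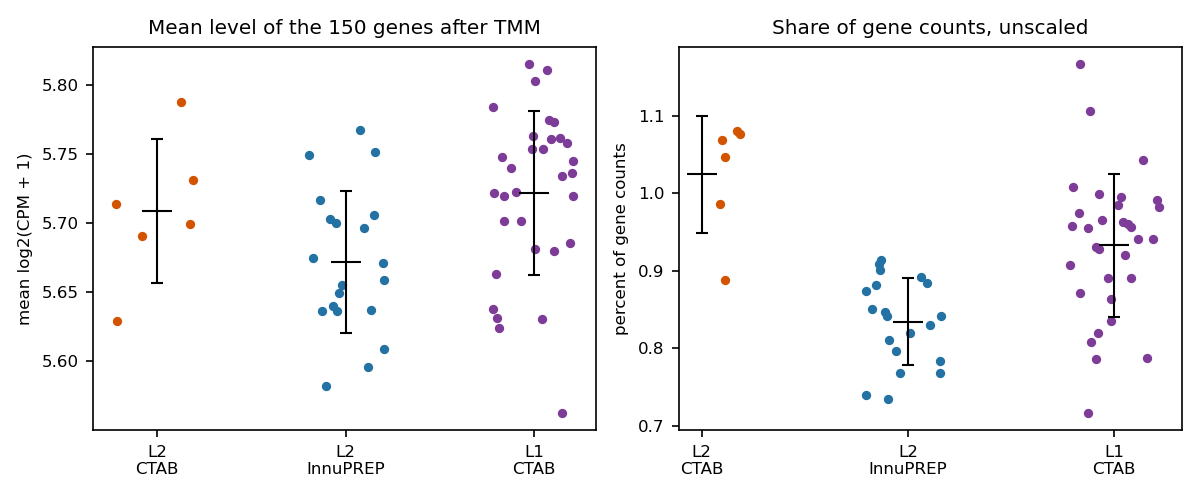
Left: mean of log2(CPM + 1) over the 150 members in each library of L2 CTAB (6), L2 InnuPREP (20) and L1 (32). Right: share of all gene counts in the members (percent, unscaled) in the same libraries; points are libraries and bars the mean ± SD. The mean level stayed between 5.56 and 5.81 over all 58 libraries, on an axis that does not start at 0. Low spread on this TMM scale in L2 InnuPREP and L1 chose the members, so this steadiness is in part set by the choice.

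The embryoid classes entered the choice, because a gene that differed between them would have had a larger spread, so the following counts are a description from which nothing is read. In L2 InnuPREP, high over zero and low palms together, 17 members were called, 13 higher and 4 lower, or 11.3% beside 40.4% of all 20008 genes tested (19.9% higher, 20.5% lower) and 42.8% of the window. The members' differences lay between -0.36 and 0.39. In 139 members the interval was within 0.5 of no difference, against 16.7% of all tested genes and 28.2% of the window, and a called difference above 0.5 was seen in 0 members, against 33.9% and 31.1%. One of the 17 was LOC105053108, with medians of 138, 142 and 168 CPM in zero, low and high palms (log2 difference 0.28, adjusted p = 0.0184). Another, LOC105056472, had medians of 29.8, 29.8 and 24.5 CPM in the same classes (log2 difference -0.31, adjusted p = 0.013). In L1, low over zero, edgeR called 0 members beside 0% of 18434 genes, with 3 members at an unadjusted p below 0.05, and DESeq2 also called 0. All 150 members had intervals within 0.5 of no difference there, against 40.1% of all tested genes and 57.8% of the window. LOC105033289 had medians of 87.1, 101 and 92.5 CPM in zero, low and high palms of L2 InnuPREP, and of 91.7 and 90.8 CPM in low and zero palms of L1.

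A few rows of the table carry a gene symbol in place of an LOC identifier and were outside the choice. Of these, 11 outside the plastid reached 20 CPM in both sets, and none had a larger SD at or below the members' limit. TCTP, the translationally controlled tumor protein, averaged 778 CPM in L2 CTAB, 1059 CPM in L2 InnuPREP and 939 CPM in L1, with a larger SD of 0.40 and an extraction difference of -0.31 (adjusted p = 0.00515) that was not called without the palm block or when scaled by total gene counts. ADPRF averaged 320, 433 and 416 CPM in the same sets, with a larger SD of 0.60 and an extraction difference of -0.66 (adjusted p = 6.93e-06), not called without the block. Both were more abundant than any member in L2 InnuPREP and L1. In L2 CTAB their SDs were 0.41 and 0.55, where single members reached 0.41.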

How the data were processed

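Whole-number counts per gene were deposited, 1 file per library, for 58 QuantSeq 3′ libraries of 52 palms. The submitters' processing notes name bcl2fastq, STAR 2.7.2b and HTSeq 0.11.2, and the genome build and the strand setting are not given in the sources used here. Shared reads of near-identical or overlapping genes are therefore uncertain. The 5 HTSeq summary lines of each file, which name no gene, were left out of library sizes and tests, and the multi-mapped share comes from them. The files hold 27986 gene rows.

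CPM used TMM effective library sizes over all 58 libraries (edgeR 4.0.16, R 4.3.3), and SDs used log2(CPM + 1). Counts were tested with edgeR's robust quasi-likelihood test with Benjamini-Hochberg adjustment over all genes passing filterByExpr, called at 0.05. Intervals are 95% Wald intervals of the fitted log2 difference. They and the member rule were run on simulated data. There the low-spread genes were set well apart from the rest, unlike the real list, so that run does not test the list's limit. DESeq2 1.42.0 was an alternative. Replicates are separate palms. The palm label pairs the 6 CTAB libraries with InnuPREP libraries: deviations of libraries of one palm correlated at 0.79 to 0.92, those of different palms at most at 0.35. No 2 libraries held identical values.

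The members and lists were chosen with earlier results of these data known. Named genes are the 10 of lowest spread, 3 on either side of the limit, the 3 largest called changes in each direction for extraction and for agency, the 5 with the smallest interval bounds, TCTP and ADPRF. Gene sequences were not used here.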

Additional observations from a re-analysis of the deposited data

Results flagged for a closer look

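In 136 groups of named genes with 4 to 10 libraries, 4 single libraries stood far from the others of their group, and chance alone flags about 1 group in 20. In L2 CTAB, LOC105034396 had 57.8 CPM in the library of L2 zero palm 2, while the other 5 libraries held 36.0 to 41.5 CPM. In L2 InnuPREP high palms, LOC105042727 had 31.5 CPM in palm 2, while the others held 39.0 to 44.0 CPM. LOC105056472 had 64.5 CPM in the CTAB library of L2 low palm 6, while the others held 45.3 to 52.2 CPM. LOC105058653 had 34.6 CPM in the CTAB library of L2 high palm 3, while the others held 23.5 to 27.2 CPM.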

How the results depend on the processing

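Scaling by total gene counts, which moved the median of all tested genes, gave 94 members higher and 12 lower with CTAB, 5 lower for L2 CTAB over L1, and 21 higher for L2 InnuPREP over L1. With the list re-chosen on that scale, a choice made after seeing the data, these were 83 and 21 for extraction and 41 higher and 6 lower for agency. Without the palm block, 33 members were called for extraction, 18 higher and 15 lower. Leaving out 1 palm gave 69 to 87 called members for extraction, 37 to 49 higher and 30 to 38 lower, and 45 to 52 for agency, 21 to 25 higher and 22 to 28 lower. It gave a median SD in L2 CTAB of 0.183 to 0.198 and a median M of 0.2502 to 0.271. With InnuPREP libraries of the same 6 palms, 45 members were lower than in L1. DESeq2 called 26 members for L2 high palms, 8 lower. The list chosen on plain CPM held 90 of the 150 members, and that chosen without L2 high palms held 82. Other choices of pseudocount, window, read thinning or summary of the 2 SDs kept 100 or more.

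Of 452 alternative values for the 35 called values of named genes, 59 were no longer called and 5 changed sign. By total gene counts, extraction differences became 0.073 for LOC105032592, 0.21 for LOC105035050, 0.28 for LOC105038417, 0.060 for LOC105040430, 0.26 for LOC105048763, 0.20 for LOC105049253, 0.055 for LOC105053108, 0.25 for LOC105055663 and 0.028 for LOC105058653. Of these, LOC105035050, LOC105038417, LOC105048763, LOC105049253 and LOC105055663 were called on that scale, though not with TMM. Agency differences by total gene counts became 0.12 for LOC105042440, 0.055 for LOC105048763, 0.057 for LOC105054071, 0.10 for LOC105054091, 0.0043 for LOC105055035 and 0.081 for LOC105055663. With InnuPREP libraries in place of CTAB, agency differences were 0.23 for ADPRF, -1.13 for LOC105034328, -0.44 for LOC105046808, -0.60 for LOC105051046, 0.70 for LOC105054091, 0.82 for LOC105055035, -0.78 for LOC105056472, 0.11 for LOC105058330 and 0.058 for TCTP. Near 0, LOC105038417 changed sign for extraction with DESeq2 (0.0015) and with TMM factors of those libraries alone (0.0086), and LOC105054091 for agency with zero and low palms only (0.023). Leaving out 1 palm changed the sign of values near 0: extraction ran from -0.071 to 0.016 for LOC105048763, from -0.051 to 0.081 for LOC105038417 and from -0.097 to 0.022 for LOC105055663, and agency from -0.063 to 0.0023 for LOC105042440, from -0.064 to 0.046 for LOC105056472, from -0.080 to 0.012 for LOC105054091 and from -0.0066 to 0.066 for LOC105038417. The cause was not tested. Depth limits the lowest spreads: in L2 CTAB, counting error made up 17.2% of a member's variance at the median and up to 106%.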
